A study of Rattus norvegicus with 16 samples.

Results

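Adra1a, Adra1b, Adrb1, Edn1, Ednra, Ednrb, Ece1, Nos3 and Ace are genes of the adrenergic, endothelin, nitric oxide and angiotensin systems that set vessel tone and act on the heart. They were chosen by name and not by a rule on measured values, though with earlier results of these data known. They are 9 of the 45777 gene rows in tables of adrenal gland, heart and pancreas. All 9 symbols were found in each table. The animals were wildtype male Sprague-Dawley rats that received intratracheal instillations of vehicle or of the disinfectant benzalkonium chloride (BKC) 10 times, every 3 days from 7 weeks of age. Doses were 50 µg per rat (BKC50) or 100 µg per rat (BKC100), and the rats were killed on day 31, 24 h after the last instillation. Both adrenal glands of an animal were pooled, and the heart piece is labelled as left ventricular. Adrenal gland and heart have vehicle, BKC50 and BKC100 groups and pancreas has vehicle and BKC100, each with 2 libraries, except that 1 BKC100 heart library is used. The other column under that label was equal to an adrenal BKC100 column in 45777 of 45777 genes and was left out of the heart, so 15 of 16 libraries were used.

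As background, noradrenaline and adrenaline act through alpha-1 receptors (Adra1a, Adra1b), which couple to phospholipase C and constrict vessels, and through the beta-1 receptor (Adrb1), which raises heart rate and contractility. Endothelin-1, a peptide made from the precursor encoded by Edn1, is cut to its active form by endothelin-converting enzyme (Ece1) and constricts vessels through receptor A (Ednra) on smooth muscle. Receptor B (Ednrb) on endothelium clears the peptide and releases vasodilators. Nos3 encodes the endothelial nitric oxide synthase, which relaxes vessels, and Ace encodes the enzyme that makes angiotensin II and breaks down bradykinin.

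Upstream sequence is shown for 4 of the genes because Edn1, Ece1 and Ace stood above, and Adra1b below, the other heart libraries in 1 library described later. The sequences are from RefSeq on assembly GRCr8, whose promoter table held 8 of the 9 genes. Adra1a was not matched. Each is the 250 bases before the annotated start, 5′ to 3′ on the gene's own strand: chr17:22666688-22666937 (minus strand) for Edn1, chr5:155360781-155361030 (plus) for Ece1, chr10:91409879-91410128 (plus) for Ace and chr10:28814348-28814597 (minus) for Adra1b. The Adra1b window lies inside the annotated span of the gene, 28756461 to 28874831 on chromosome 10. Capitals mark matches to any of 5 motifs, read on both strands.
Edn1: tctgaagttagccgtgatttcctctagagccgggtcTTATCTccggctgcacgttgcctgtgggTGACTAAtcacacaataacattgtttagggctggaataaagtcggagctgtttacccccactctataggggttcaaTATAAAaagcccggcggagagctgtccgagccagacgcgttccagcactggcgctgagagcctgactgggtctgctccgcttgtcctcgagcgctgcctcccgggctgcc
Ece1: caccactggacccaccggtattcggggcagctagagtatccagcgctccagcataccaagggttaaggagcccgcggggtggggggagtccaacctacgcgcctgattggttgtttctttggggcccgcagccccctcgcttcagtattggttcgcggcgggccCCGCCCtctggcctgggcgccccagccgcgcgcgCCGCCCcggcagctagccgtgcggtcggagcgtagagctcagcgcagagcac
Ace: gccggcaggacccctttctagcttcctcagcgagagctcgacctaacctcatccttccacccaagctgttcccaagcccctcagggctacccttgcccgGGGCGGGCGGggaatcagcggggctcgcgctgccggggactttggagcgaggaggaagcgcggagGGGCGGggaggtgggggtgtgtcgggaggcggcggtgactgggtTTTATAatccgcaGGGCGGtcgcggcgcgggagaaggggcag
Adra1b: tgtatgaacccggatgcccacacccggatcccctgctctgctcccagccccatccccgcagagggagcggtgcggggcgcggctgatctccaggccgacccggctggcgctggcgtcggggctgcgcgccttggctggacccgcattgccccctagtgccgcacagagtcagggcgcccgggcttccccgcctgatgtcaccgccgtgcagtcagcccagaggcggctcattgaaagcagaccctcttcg

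The motifs were TATAAA, where the general transcription machinery binds, GGGCGG, bound by Sp1, AGATAA, bound by GATA factors, TGACTAA, bound by AP-1, and CATTCC, bound by TEAD factors. They were chosen with the known Edn1 promoter in view. Over windows that also held the first 50 bases after the start, TATAAA occurred in 14.3% of 27457 rat promoters, GGGCGG in 34.9%, AGATAA in 11.3%, TGACTAA in 2.33% and CATTCC in 13.9%. Edn1 held TATAAA once, TGACTAA upstream of it and AGATAA, on the opposite strand, furthest upstream, with no overlap among them. Ece1 held GGGCGG at 2 places on the opposite strand. Ace held it at 4 places, a pair of which overlap, and TATAAA on the opposite strand. Adra1b held GGGCGG after its start only, outside the stretch shown, Nos3 held it once, and Adrb1, Ednra and Ednrb held none of the motifs. These matches are letters in a window and no measurement of binding.

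Levels are FPKM (fragments scaled by transcript length and by library size), which are per length and so can be set between genes. The unit was inferred from the values, and the read depth behind each value is unknown. Summed FPKM per library was 391123 to 1004889 in adrenal gland, 356725 to 476434 in heart and 486061 to 603063 in pancreas. Marker genes of the labelled organ were present throughout: adrenal cortex genes summed to 19162 FPKM or more in each adrenal library, and acinar genes to 86845 FPKM or more in each pancreas library. Differences were tested with limma on log2(FPKM + 1) over genes that averaged 1 FPKM or more in the libraries of the fit. Called means a Benjamini-Hochberg adjusted p under 0.05 over all genes tested. The p-values rest on a spread between libraries that is pulled, for each gene, toward a trend over all genes tested. A gene that varied more than the trend can thus have an SE under its own spread. Nothing in the labels says that the 2 libraries of a group came from separate animals, so this spread may be technical.

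The library labelled 100 µg heart went against its left ventricular label. Its 4 ventricular genes (Myl2, Myl3, Irx4, Hey2) summed to 55.8 FPKM, against 13913 to 22020 in the other 4 hearts. Irx4 was listed at 0, and Myl2, the ventricular regulatory light chain, was at 41.9 FPKM against 11675 to 18061. Its 7 atrial genes summed to 33391 FPKM against 51.8 to 230, led by Nppa, the atrial natriuretic peptide precursor, at 17727 FPKM, and all 7 were above every other heart. Dose and heart chamber cannot be told apart in this library.

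In vehicle rats the genes had different organ profiles. Adra1a and Adra1b were heart genes in this set: vehicle hearts had 14.5 and 10.8 FPKM of Adra1a and 24.4 and 11.6 FPKM of Adra1b, while no adrenal or pancreas library of any group was above 0.414 FPKM for Adra1a or 0.19 FPKM for Adra1b. Adrb1 was at 3.73 and 2.57 FPKM in the vehicle hearts and at most 0.131 FPKM in the other organs. The endothelin genes ran the other way in part. Ece1 was at 58.2 and 69.3 FPKM in vehicle adrenal glands, 19.1 and 14.6 in vehicle hearts and 3.06 and 1.46 in vehicle pancreas, with no overlap between organs.

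Ednrb followed the same order, at 13.3 and 14.4 FPKM in adrenal gland, 5.9 and 8.17 in heart and 0.809 and 0.329 in pancreas. Ednra was highest in heart, at 9.37 and 5.33 FPKM against 3.45 and 1.27 in adrenal gland and 0.134 and 0.0621 in pancreas. The ligand gene Edn1 was low everywhere. It was at 0.857 and 0.575 FPKM in vehicle hearts, 0 and 0.168 in vehicle adrenal glands and 0.262 and 0.109 in vehicle pancreas. Nos3 was at 7.11 and 6.82 FPKM in vehicle hearts against 0.838 and 1.23 in adrenal gland and 0.223 and 0.113 in pancreas. Ace was at 2.03 and 2.41 FPKM in vehicle hearts against 0.771 and 0.656 in adrenal gland and 0.429 and 0.258 in pancreas.

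Within the vehicle adrenal gland the order was Ece1, Ednrb and then Ednra, without overlap, and then Nos3 and Ace, which did not overlap each other in these libraries but lay within 0.656 to 1.23 FPKM. Nos3 and Ednra also lay close, at 1.23 and 1.27 FPKM in vehicle replicate 2. In the vehicle heart Adra1b overlapped Ece1 and Adra1a. Ednra, Ednrb and Nos3 overlapped one another between 5.33 and 9.37 FPKM. Adrb1 stood above Ace, and Edn1 came last.

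**Figure D1:**
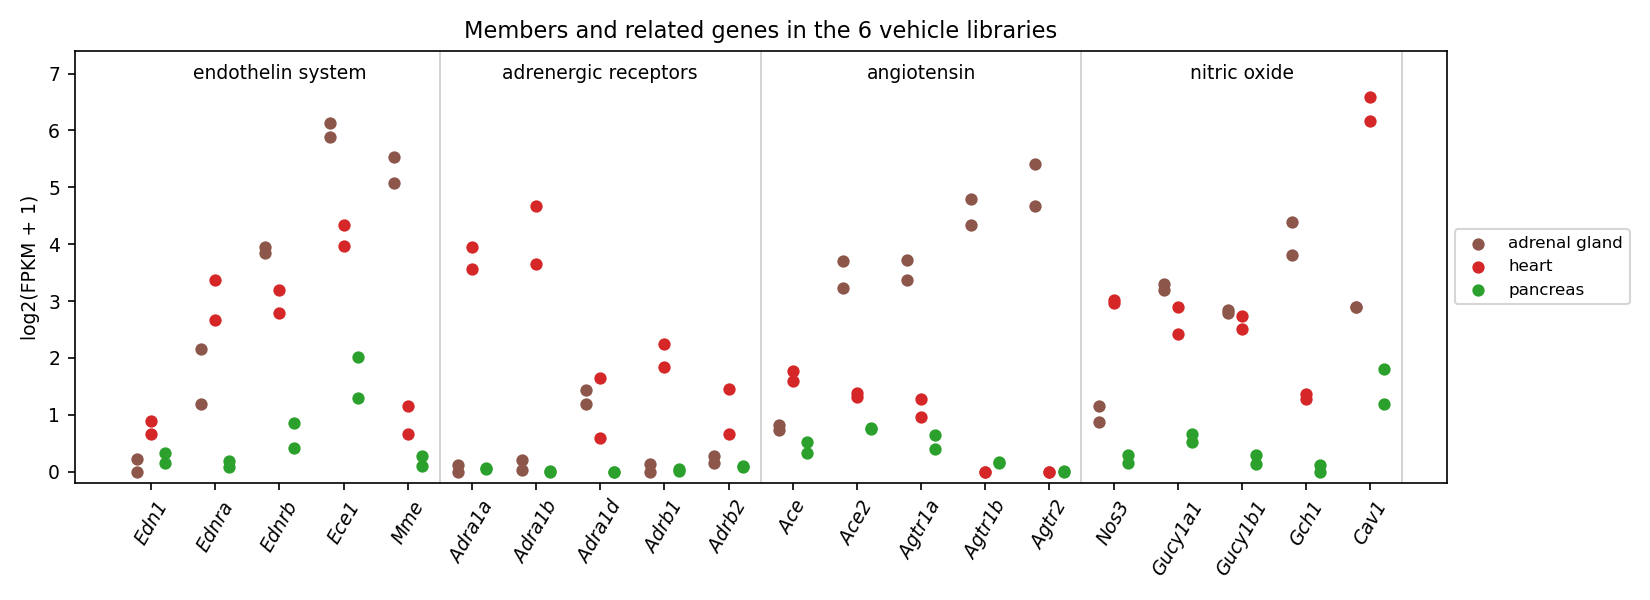
Levels of the 9 genes and of related genes in the vehicle libraries. Each point is 1 library (2 per organ) on the log2(FPKM + 1) scale. Ece1, Ednrb and Mme are highest in adrenal gland, and Adra1a, Adra1b, Adrb1, Ednra, Nos3 and Ace are highest in heart.

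Edn1 was under the filter, and the other 8 genes were tested between organs. Against vehicle adrenal gland, 6 of the 8 were called higher in vehicle heart and 2 lower, where 17.8% of all genes tested were called higher and 46.2% lower. Adra1a, Adra1b, Adrb1, Nos3 and Ace passed the filter through the heart alone, so that count is no evidence about the set. Ednra was higher in heart by 1.35 (SE 0.28, adjusted p = 3.47e-05), whereas Ednrb was lower by a log2 difference of -0.90 (SE 0.27, adjusted p = 0.00251) and Ece1 by -1.86 (SE 0.31, adjusted p = 4.86e-08), all from limma. The median of all genes was -0.53 in this comparison. Under median-ratio scaling and quantile normalization Ednrb was no longer called (adjusted p = 0.244 and 0.266), and with no filter on low values Ednra was not (adjusted p = 0.0597). The adjusted p of Ednra ran from 1.25e-08 to 0.0597 over all alternatives. Without heart vehicle replicate 1, 5 of the 8 genes were called. Here and below, fewer cells of a type and less RNA per cell cannot be told apart in bulk tissue.

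Pancreas libraries were low in most genes: 89.5% of genes tested were called lower than in adrenal gland and 2.47% higher, with a median log2 difference of -2.39. Ednra (-1.54), Nos3 (-0.79), Ednrb (-3.25) and Ece1 (-4.35) were among the called falls, and 0 of the 8 genes were higher. Ace differed by -0.35 (SE 0.25, limma adjusted p = 0.163). Relative to the median, Ednrb and Ece1 lay below it and Nos3, Ednra and Ace above it. For the last 3 this was fixed by their levels. Their vehicle adrenal values were 0.728 to 2.155 on the log2(FPKM + 1) scale, too low for a fall as large as the median. The sign of Nos3 and Ace turned positive under both other scalings, and Ednra lost its call under both (adjusted p = 0.2 and 0.55). Against pancreas, all 8 genes were called higher in heart, beside 86.2% of all genes. Adra1a, Adra1b, Adrb1, Nos3 and Ace passed this filter through the heart alone, so that count too is no evidence about the set. Of all genes 2.93% were called lower, and the median was 1.84. Ace differed by 1.26 and could not reach that median, since its vehicle heart values were 1.599 and 1.769 on the log2(FPKM + 1) scale. The sign of Ace turned under both other scalings, as did that of Ece1, at 2.49, under quantile normalization. Under each of those scalings 5 of the 8 genes were called.

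Other genes of these systems also differed between adrenal gland and heart, as did most genes tested. Of all genes, 17.8% were called higher in heart and 46.2% lower, so the list counts are given as descriptions. Of the 4 endothelin system genes tested of 9, Mme, which encodes neprilysin, a peptidase that degrades endothelin, was lower in heart by a log2 difference of -4.39 (SE 0.27, limma adjusted p = 3.61e-36), at 45.2 and 32.7 FPKM in adrenal gland and 0.589 and 1.22 in heart. Of 10 renin, angiotensin and kinin genes tested of 16, Ace included, 3 were called higher in heart and 6 lower. The angiotensin receptor genes Agtr2 (-5.04), Agtr1b (-4.56) and Agtr1a (-2.43) and the prorenin receptor gene Atp6ap2 (-2.56) were lower. Of 14 nitric oxide and cGMP genes tested of 18, 5 were higher and 6 lower. Cav1, encoding caveolin-1, which binds the Nos3 enzyme, was higher by 3.47, and Gch1, which makes the cofactor of nitric oxide synthases, was lower by a difference of -2.76. Prkg1, encoding a kinase that cGMP activates, was higher by 1.89.

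Of 19 adrenergic coupling genes tested of 21, 6 were higher and 8 lower in heart, beside 17.8% and 46.2% of all genes. Adcy5, a cyclase that beta receptors stimulate, was higher by 3.42, and Plcb1, a phospholipase that alpha-1 receptors drive, was lower by a difference of -3.38. All 3 adrenergic receptor genes tested of 9, which are Adra1a, Adra1b and Adrb1, were higher. Of 7 other vasoactive genes tested of 18, 6 were called higher and 0 lower, where 17.8% of all genes were called higher. Genes such as Ptgis and Apln passed the filter through the heart, so these list counts are partly set by the filter. The called genes included the prostacyclin synthase gene Ptgis (2.79) and the apelin genes Apln (2.49) and Aplnr (2.03). Of 12 endothelial markers 7 were called higher in heart and 1 lower, with a summed level of 264 to 281 FPKM against 183 to 205 in vehicle adrenal gland, and their part in these differences was not tested.

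**Figure D2:**
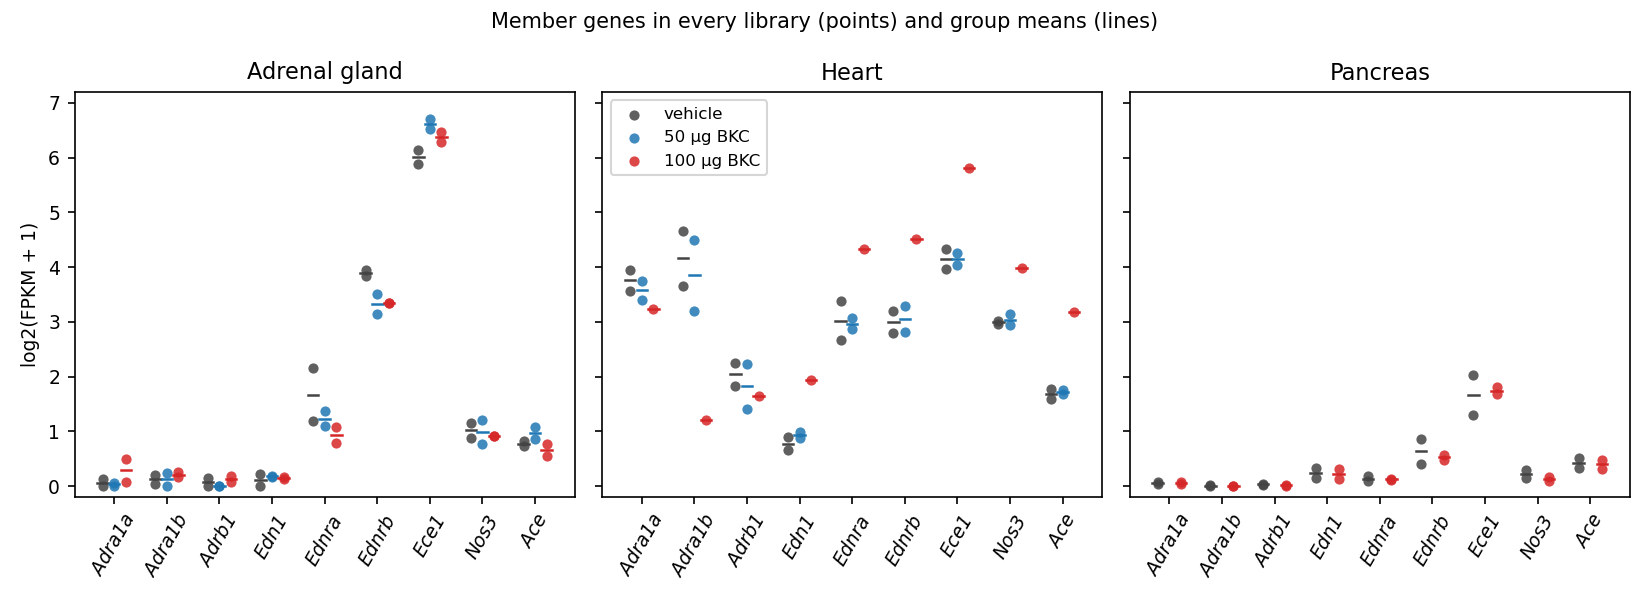
The 9 genes in all 15 libraries by organ and dose, on the log2(FPKM + 1) scale. Points are libraries and short lines are group means of 2 libraries, or the single library for 100 µg heart. Ece1 is above vehicle in the adrenal glands of both doses, and in the 100 µg heart library 6 genes lie above and Adra1a and Adra1b below all other hearts.

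In the adrenal gland 3 of the 9 genes passed the filter, all of the endothelin system: Ece1, Ednrb and Ednra. Their changes with dose were under 1 on the log2 scale and 0 were called at either dose. Ece1 was at 58.2 and 69.3 FPKM with vehicle, 91.1 and 103 with BKC50 and 77 and 87.7 with BKC100, so that both dosed groups lay above vehicle without overlap. Ednrb was at 13.3 and 14.4 FPKM with vehicle, 7.83 and 10.4 with BKC50 and 9.16 and 9.11 with BKC100, below vehicle without overlap at both doses. Ednra was at 3.45 and 1.27 FPKM with vehicle, 1.58 and 1.13 with BKC50 and 0.721 and 1.1 with BKC100. It overlapped vehicle at 50 µg and lay below it at 100 µg.

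Such separation is common among all genes tested: 46.1% did not overlap vehicle at 50 µg and 61.0% at 100 µg. At 50 µg the log2 difference was 0.60 for Ece1 (SE 0.20, adjusted p = 0.282), -0.56 for Ednrb (SE 0.25, adjusted p = 0.413) and -0.44 for Ednra (SE 0.35, adjusted p = 0.668), by limma, with 0.0318% of all 12578 genes called. An unadjusted p under 0.05 was reached by 2 of the 3 and by 1424 of all 12578 genes. The Ednra difference rested on vehicle replicate 1 and was 0.05 without it. At 100 µg the differences were 0.37 for Ece1 (SE 0.20, adjusted p = 0.233), -0.55 for Ednrb (SE 0.25, adjusted p = 0.155) and -0.74 for Ednra (SE 0.35, adjusted p = 0.172), with 9.78% of genes called. An unadjusted p under 0.05 was reached by 1 of the 3 and by 3776 of the 12578 genes.

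The median of all genes was itself -0.28 at 100 µg and -0.10 at 50 µg. Relative to it, Ece1 stood at 0.65 and Ednrb at -0.27 at 100 µg. Between the doses 0 of the 3 were called, and 0 had an unadjusted p under 0.05, where 2384 of the 12578 genes did and 2.96% were called. The differences of BKC100 from BKC50 were -0.23 for Ece1, 0.02 for Ednrb and -0.30 for Ednra. The sign of Ednrb turned to -0.17 without BKC50 replicate 1. All comparisons of dose with vehicle share the same 2 vehicle libraries. The BKC100 adrenal libraries carry another style of library name than the vehicle and BKC50 ones, so name style and this dose cannot be told apart.

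Marker levels moved beside these values. Smooth muscle and pericyte genes summed to 153 to 209 FPKM with vehicle, 162 to 183 with BKC50 and 81.8 to 98.1 with BKC100. Tagln was the largest part, at 83.8 and 136 FPKM with vehicle, 123 and 95.7 with BKC50 and 43.8 and 32.4 with BKC100. It was the 1 gene of 8 tested that was called, and it fell at 100 µg (-1.48, SE 0.26, limma adjusted p = 0.011). Endothelial genes summed to 183 to 205 FPKM with vehicle, 174 to 209 with BKC50 and 158 to 168 with BKC100, with 0 of 11 called at either dose. Adrenal cortex genes summed to 19162 to 23321 FPKM with vehicle, 22549 to 26275 with BKC50 and 21778 to 23812 with BKC100. The part of these cells in the Ednra, Ednrb and Ece1 values was not tested.

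The 6 genes under the filter in the adrenal gland are given as levels only. Nos3 was at 0.838 and 1.23 FPKM with vehicle, 0.698 and 1.3 with BKC50 and 0.895 and 0.893 with BKC100, with overlapping ranges. Ace was at 0.771 and 0.656 FPKM with vehicle, 0.805 and 1.12 with BKC50 and 0.46 and 0.699 with BKC100. Its BKC50 libraries lay above and its BKC100 libraries overlapped vehicle. Edn1 was between 0 and 0.168 FPKM, Adra1b between 0.00628 and 0.19, Adrb1 between 0 and 0.131 and Adra1a between 0 and 0.414, the highest of these in BKC100 replicate 2.

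Of all genes tested in the adrenal gland, 0.0318% were called at 50 µg and 9.78% at 100 µg. The counts of related genes are given beside these shares as descriptions. At 50 µg 0 genes of the 6 lists were called. At 100 µg, 1 of 13 nitric oxide genes tested fell: Nosip, encoding a protein that binds nitric oxide synthase, was at 31 and 32.8 FPKM with vehicle, 30.9 and 30.7 with BKC50 and 10.1 and 16.9 with BKC100. It fell against vehicle (-1.22, SE 0.25, adjusted p = 0.0146) and against BKC50 (-1.17, SE 0.25, adjusted p = 0.0292), by limma. No gene was called of the 4 endothelin, 10 renin, angiotensin and kinin, 1 adrenergic receptor and 7 other vasoactive genes tested.

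**Figure D3:**
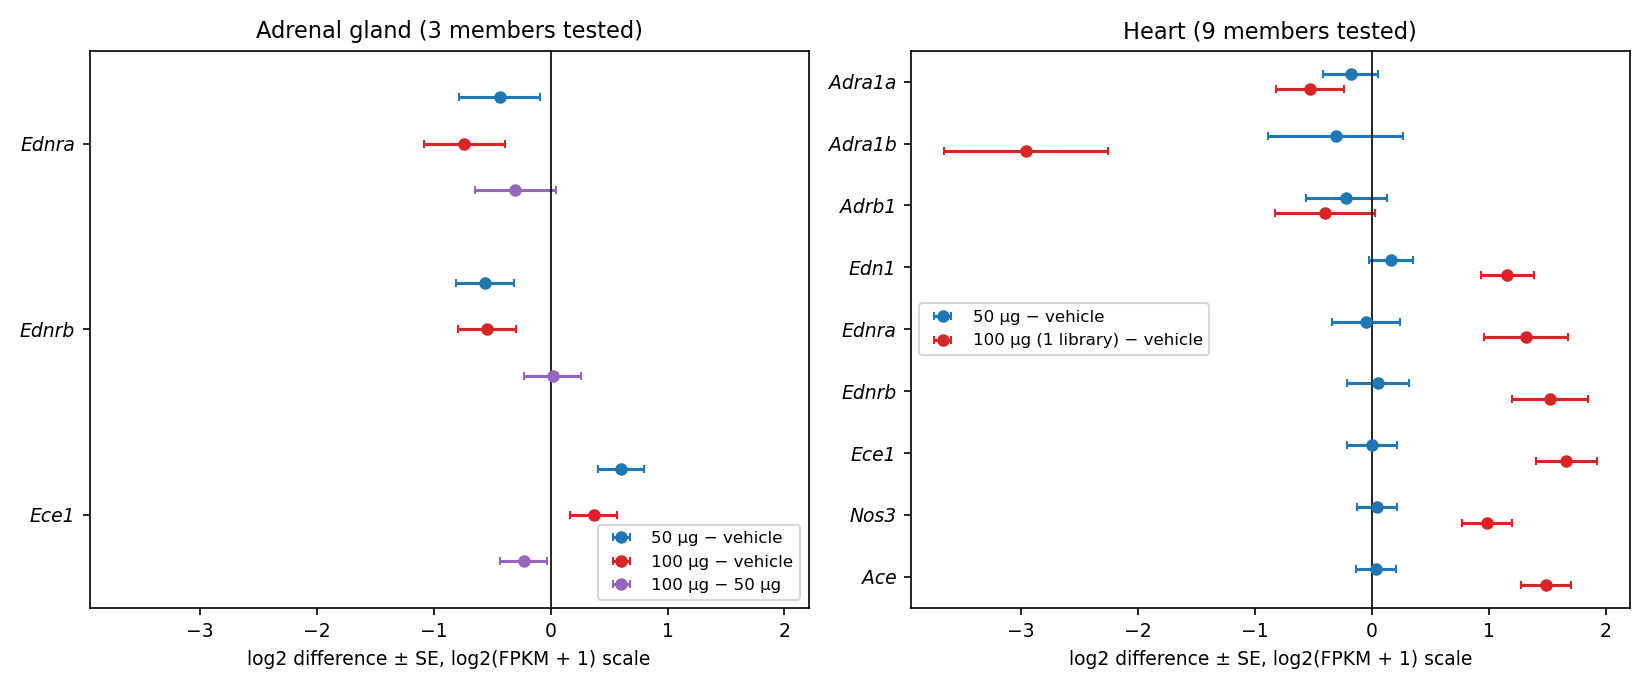
Differences of the tested genes with dose, as log2 difference ± standard error from limma on log2(FPKM + 1). Left, adrenal gland (3 genes, 2 libraries per group); right, heart (9 genes, 2 libraries per group but 1 at 100 µg). In adrenal gland all values lie between -0.74 and 0.60, and in heart the 50 µg values lie near 0 while the 100 µg values reach -2.96 for Adra1b and 1.66 for Ece1.

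In the heart all 9 genes passed the filter, and at 50 µg none was called. Adra1a was at 14.5 and 10.8 FPKM with vehicle and 12.5 and 9.56 with BKC50. Adra1b was at 24.4 and 11.6 FPKM with vehicle and 21.7 and 8.19 with BKC50. Adrb1 was at 3.73 and 2.57 FPKM with vehicle and 3.7 and 1.65 with BKC50. The groups overlapped for all 3 receptors, but each group holds a library of each name style described below. The styles did not overlap for any of the 9 genes. Overlap of the dose groups was therefore fixed by the name styles and is no evidence of no change.

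The endothelin genes, Nos3 and Ace overlapped too, with the same limit. Ednra was at 9.37 and 5.33 FPKM with vehicle and 7.38 and 6.3 with BKC50, and Ednrb at 5.9 and 8.17 against 6 and 8.73. Ece1 was at 19.1 and 14.6 FPKM with vehicle and 18.2 and 15.5 with BKC50, and Edn1 at 0.857 and 0.575 against 0.989 and 0.843. Nos3 was at 7.11 and 6.82 FPKM against 7.82 and 6.66, and Ace at 2.03 and 2.41 against 2.19 and 2.39. The log2 differences ran from -0.31 (SE 0.57) for Adra1b to 0.16 (SE 0.19) for Edn1, and 0 of 9 were called by limma, all with an adjusted p of 1.0. At an unadjusted p under 0.05 there were 0 of 9 genes, and 45 of the 12099 tested, of which 0.0% were called. The sign of Adra1b turned to 0.34 without BKC50 replicate 2, a fit that leaves BKC50 with the first name style only.

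The heart libraries carry 2 styles of library name. Vehicle replicate 1 and BKC50 replicate 1 carry the first style, and vehicle replicate 2, BKC50 replicate 2 and the library labelled 100 µg heart the second. For all 9 genes the 2 first-style libraries did not overlap the 2 second-style vehicle and BKC50 libraries, which was also so for 73.5% of all genes tested. The first style was higher for Adra1b (2.33 times), Adrb1 (1.76), Ednra (1.44), Adra1a (1.32), Edn1 (1.3), Ece1 (1.24) and Nos3 (1.11), and lower for Ednrb (0.704) and Ace (0.88). Within the first style the BKC50 library differed from vehicle by -0.16 for Adra1b on the log2(FPKM + 1) scale, and within the second by -0.46. Adra1a (-0.20 and -0.16) and Adrb1 (-0.01 and -0.43) were also lower in both styles. Edn1 (0.10 and 0.23) and Ednrb (0.02 and 0.08) were higher in both. For Ednra the values within the styles had opposite signs, -0.31 and 0.20, as they had for Ece1, Nos3 and Ace. Each is a difference of 1 library from 1, with no test.

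The library labelled 100 µg heart stood apart in 8 of the 9 genes. Adra1b was at 1.3 FPKM there, against a lowest value of 8.19, a median of 16.7 and a highest value of 24.4 in the other 4 hearts, and the mean of those was 12.7 times higher. Adra1a, at 8.37 FPKM, lay just under their lowest value of 9.56. Adrb1, at 2.11 FPKM, lay within their range of 1.65 to 3.73. Of the 9 adrenergic receptor genes listed, 5 were below all other hearts and 0 above, beside 33.3% and 33.2% of all genes tested. Beside Adra1a and Adra1b these were Adra1d, at 0.0437 FPKM against 0.511 to 2.12, Adra2b, at 0.037 against 0.236 to 0.56, and Adra2c, listed at 0 against 0.106 to 0.363.

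All 4 endothelin genes were high in it. Edn1 was at 2.82 FPKM against 0.575 to 0.989 in the other hearts, Ednra at 19.2 against 5.33 to 9.37, Ednrb at 21.9 against 5.9 to 8.73 and Ece1 at 55.2 against 14.6 to 19.1. Nos3 was at 14.8 FPKM against 6.66 to 7.82, and Ace at 8.02 against 2.03 to 2.41. These 6 genes were 2.08 (Nos3) to 3.56 (Ace) times the mean of the other 4. Of all genes tested, 33.2% lay above and 33.3% below all other hearts in this library, so lying outside them is common. Edn1 passed the filter through this library alone.

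None of the 9 was called in this library against vehicle (0.81% of genes called) or against BKC50 (0.876% called). In each comparison 7 of the 9 had an unadjusted p under 0.05, as did 2093 and 2162 of the 12099 genes. Against vehicle the log2 difference was -2.96 for Adra1b (SE 0.70, adjusted p = 0.158), 1.49 for Ace (SE 0.21, adjusted p = 0.0763), 1.66 for Ece1 (SE 0.26, adjusted p = 0.0906) and 1.16 for Edn1 (SE 0.23, adjusted p = 0.12), by limma. It was 1.52 for Ednrb, 1.32 for Ednra, 0.99 for Nos3, -0.53 for Adra1a and -0.40 for Adrb1, with adjusted p from 0.134 to 0.673. Against BKC50 it was -2.65 for Adra1b, 1.66 for Ece1 and 1.46 for Ace, with adjusted p of 0.184, 0.0891 and 0.0792. The single library has no replicate check and was assumed to vary like the other hearts.

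With name style as a covariate, an alternative added after the data were seen, 7 of the 9 genes were called against vehicle: Edn1, Ednra, Ednrb, Ece1, Nos3 and Ace higher and Adra1b lower. In that fit 29.3% of all genes were called. Its adjusted p was 0.00222 for Ece1, where the alternatives ranged from 0.00182 to 0.223, and 0.00235 for Adra1b, where they ranged from 0.00127 to 0.26. Leaving out other libraries also moved the counts. Against vehicle, 1 gene was called without vehicle replicate 1, without BKC50 replicate 1 or without BKC50 replicate 2. Against BKC50, leaving out vehicle replicate 2 gave 4 called genes, leaving out vehicle replicate 1 gave 2, and leaving out BKC50 replicate 2 gave 1. With the replicate block more of these genes were called in both comparisons. The share of all genes called in those fits is not set beside this, so it is no evidence about the set.

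**Figure D4:**
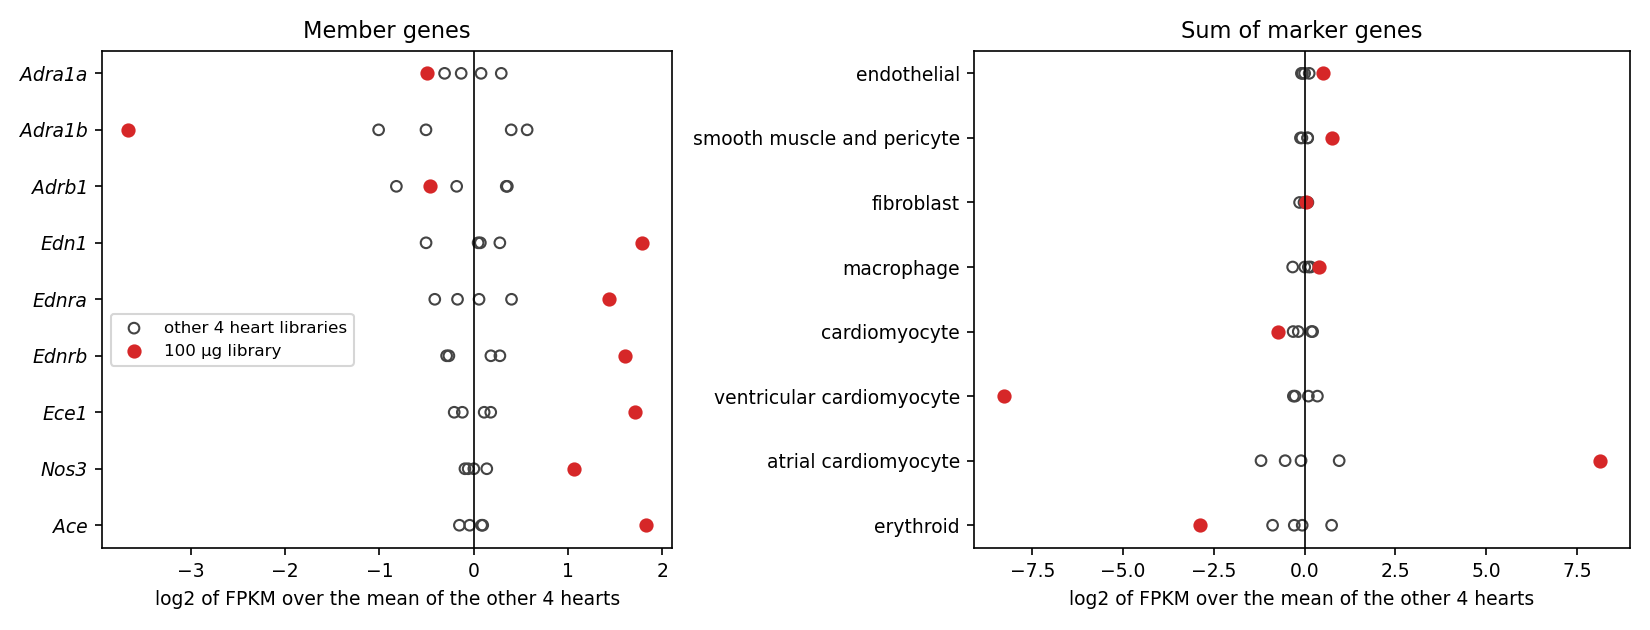
The library labelled 100 µg heart (filled points) and the other 4 hearts (open circles), each as the log2 of FPKM over the mean of the other 4. Left, the 9 genes; right, summed marker genes of cell types. Adra1b lies far below and Edn1, Ednra, Ednrb, Ece1, Nos3 and Ace lie above the other hearts, while the ventricular sum is 55.8 FPKM and the atrial sum 33391 FPKM in this library.

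Marker genes of other cell types were also outside the other hearts in this library, where 33.2% of all genes tested lay above and 33.3% below them. Endothelial genes summed to 401 FPKM against 264 to 307, with 4 of 12 above and 3 below all other hearts, near the shares of all genes. As a percentage of that sum, Ece1 was 13.7% against 5.04% to 7.21% in the other hearts, Ace 2.0% against 0.768% to 0.857%, Ednrb 5.46% against 2.22% to 2.91%, Nos3 3.68% against 2.17% to 2.9% and Edn1 0.703% against 0.205% to 0.367%. That sum was high mainly through Pecam1, at 96.2 FPKM against 42.4 to 53, and Eng, at 83.1 against 20.7 to 26.8. Smooth muscle and pericyte genes summed to 568 FPKM against 312 to 359, with 6 of 11 above and 3 below all other hearts. Acta2 was at 324 FPKM against 5.62 to 10.7, and Cnn1 at 34.3 against 0.156 to 0.764. Cnn1 passed the filter through this library alone. The 3 below were Tagln, at 5.75 FPKM against 10.7 to 20.9, Rgs5, at 103 against 196 to 229, and Kcnj8, at 9 against 18 to 21.6. Without Acta2 the sum was 244 FPKM against 307 to 353. Fibroblast genes summed to 860 FPKM against 755 to 883, macrophage genes to 94.8 against 57.6 to 81.3, cardiomyocyte genes to 14232 against 18884 to 27396 and erythroid genes to 364 against 1469 to 4532. The part of these cells in the values of the 9 genes was not tested.

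Among related genes, 1 was called in this library, where 0.81% of all genes tested were called against vehicle and 0.876% against BKC50. Ptgs2, the inducible prostaglandin synthase gene, was at 4.69 FPKM there and at 0.17 to 0.3 in the other 4 hearts, and rose against vehicle (2.17, SE 0.21, adjusted p = 0.0404) and against BKC50 (2.24, SE 0.21, adjusted p = 0.0389), by limma. It was 1 of 10 other vasoactive genes tested and passed the filter through this library alone. Of 5 adrenergic receptor, 19 adrenergic coupling, 4 endothelin, 14 nitric oxide and 7 renin, angiotensin and kinin genes tested, 0 were called. The median log2 difference from vehicle was 1.42 over the 4 endothelin genes tested, beside 0.00 over all genes. These are Edn1, Ednra, Ednrb and Ece1 themselves, so the median adds nothing to their values. It was -0.53 over the 5 adrenergic receptor genes, which is the value of Adra1a, and Adra1b and Adrb1 are also among them. In heart at 50 µg 0 genes of any of the 6 lists were called, beside 0.0% of all genes tested.

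In pancreas Ece1 alone passed the filter. It was at 3.06 and 1.46 FPKM with vehicle and 2.49 and 2.21 with BKC100, both inside the vehicle range (log2 difference 0.08, SE 0.30, limma adjusted p = 1.0, with 0.392% of 5610 genes called). Its unadjusted p was 0.781, and its sign turned to -0.28 without vehicle replicate 2. Ednrb was at 0.809 and 0.329 FPKM with vehicle and 0.398 and 0.475 with BKC100. Nos3 was at 0.223 and 0.113 FPKM against 0.114 and 0.0719, and Ace at 0.429 and 0.258 against 0.24 and 0.397.

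Edn1 in pancreas was between 0.0918 and 0.262 FPKM and Ednra between 0.0621 and 0.134. Adra1a and Adrb1 were at most 0.0479 and 0.0283 FPKM, and Adra1b was listed at 0 in 3 of the 4 libraries. Vehicle replicate 1 had the highest value of Ece1, Ednrb, Nos3, Ace, Edn1 and Ednra. It also had the higher endothelial sum of the vehicle pair (12.6 against 6.62 FPKM), where BKC100 had 8.06 to 8.44, and the part of these cells was not tested. Of the 4 nitric oxide genes tested 1 was called: Arg2, an arginase that competes with nitric oxide synthases for arginine, was at 1.36 and 0 FPKM with vehicle and 3.56 and 2.01 with BKC100 (log2 change 1.27, SE 0.27, limma adjusted p = 0.00257). Arg2 passed the filter through the BKC100 libraries, and 0.392% of all genes tested in pancreas were called.

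Whether the dose effects differed between organs was tested directly. For 50 µg, heart against adrenal gland, 0 of the 8 genes tested were called, 0 had an unadjusted p under 0.05, and 0.0% of 12934 genes were called, with 760 at an unadjusted p under 0.05. The effect on Ednrb was 0.61 higher in heart (SE 0.35, adjusted p = 0.886), and that on Ece1 differed by -0.60 (SE 0.30, adjusted p = 0.87). For 100 µg, pancreas against adrenal gland, 0 of the 2 genes tested, Ednrb and Ece1, were called and 0 had an unadjusted p under 0.05, with 2.22% of 11567 genes called. The differences were 0.43 for Ednrb (SE 0.32, adjusted p = 0.494) and -0.28 for Ece1 (SE 0.38, adjusted p = 0.721), all by limma.

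The genes with the most similar profile were found by Pearson's r of log2(FPKM + 1) over the 15 libraries, which mostly reflects organ. Adra1a was most like Popdc2, Styxl2 and Fabp3 (r = 0.998, 0.998 and 0.997), and Adra1b most like Lgr6, Asb10 and Ky (0.996, 0.996 and 0.995). Ednra was most like Tbx20, Cilp and Tspan2 (0.98 to 0.982), and Ednrb most like Ro60, Lpp and Gucy1a1 (0.989 to 0.992). Ece1 was most like Ep400, Golgb1 and Usp11 (0.993 to 0.995), Nos3 most like Fabp5, Mical2 and Frmd4a (0.99 to 0.991) and Ace most like Nfatc1, Gpx3 and Col8a1 (0.971 to 0.977). Over the 6 adrenal libraries alone, Ednra was most like Mfng, Mipol1 and Dus4l (0.968 to 0.988), Ednrb most like Zswim7, Tnks2 and Itsn2 (0.985 to 0.995) and Ece1 most like Map2k1, Psmd7 and Ipo4 (0.987 to 0.989). These libraries share organ and dose groups, and the values are descriptions, the highest among 11745 genes compared over all libraries and 11625 over the adrenal ones.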

How the data were processed

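RNA was sequenced from adrenal gland, heart and pancreas with a stranded mRNA kit, per the labels' protocols. The authors deposited 1 table per organ with 1 value per gene and library, read here as FPKM. The unit was inferred from values that were not whole and whose sums differed between libraries. HISAT2 2.1.0, StringTie 2.1.3b and edgeR 3.40.2 are named per the submitters' processing notes, without their roles, and the genome build is not given in the sources used here. Read counts were not used here, so no counting interval was computed. All columns were matched to samples by library name, with 0 left unmatched.

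Each organ was fitted with limma 3.58.1 in R 4.3.3 on log2(FPKM + 1), with 1 mean per group, a variance trend and robust shrinkage over all its groups. Genes that averaged 1 FPKM or more in the fitted libraries were tested, p-values were adjusted over all of them by the Benjamini-Hochberg method, and genes with an adjusted p under 0.05 were called. Fold changes on this scale understate changes of low genes. Organs were compared over the 6 vehicle libraries in 1 fit, and dose effects between organs by an interaction term. The organ tables were taken to be on 1 scale, which is an assumption. The column present in both the adrenal and heart tables is the adrenal copy left out of the heart. It cannot show the scale of the other heart columns or of the pancreas columns. The fits were tested on simulated data. There small changes were not called and large ones were called in most or part of the genes, so a gene that was not called is not shown to be unchanged.

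The 9 genes, the lists and the markers were chosen with earlier results of these data known. Text names all 9 genes, up to 4 called members of each pathway list per comparison, marker sums with defining markers, and for each gene with a mean of at least 1 FPKM the 3 genes of highest r. Other genes are named as chosen after their values were seen. Alternatives were a pseudocount of 0.1, no filter or a minimum mean of 5 FPKM, quantile normalization, median-ratio scaling, equal sums of protein-coding genes, limma without robust shrinkage, a replicate block, only the groups compared, all 6 heart columns as deposited, and each library left out. Tables and plots were made with numpy 2.4.6, pandas 2.3.3 and matplotlib 3.10.9. One result of the related genes is not reported here.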

Additional observations from a re-analysis of the deposited data

How the results depend on the processing

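Of the alternative values computed for single genes, 639 kept direction and side of the threshold, 37 became called, 8 lost their call and 16 changed sign. Counts of called genes among the 9 moved in 5 comparisons. For the library labelled 100 µg heart against vehicle, where 0 were called, quantile normalization gave 1, protein-coding genes at equal sums 1, only the groups compared 1, name style as a covariate 7, and leaving out a library 0 to 1. Against BKC50 the same settings gave 1, 1, 2 and 7, and leaving out a library 0 to 4. A minimum mean of 5 FPKM left 3 called in vehicle heart against adrenal gland, 2 in pancreas against adrenal gland and 3 in heart against pancreas, because fewer of the genes were tested. Leaving out a library gave 5 to 8 in heart against adrenal gland. Median-ratio scaling and quantile normalization each gave 5 in heart against pancreas.

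With the replicate block more of the genes were called in the library labelled 100 µg heart against vehicle and against BKC50. No share of all genes is set beside this. In the other comparisons the block changed no count of called genes by over 1.5 times. The difference of replicate 1 from replicate 2 was taken per gene within each group. Between 2 groups these differences correlated at 0.745 in heart, 0.423 in pancreas and -0.142 to 0.143 in adrenal gland. With 2 numbers, same-numbered libraries were not taken as pairs. In heart the numbers coincide with name style except in the library labelled 100 µg heart.

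Signs changed as follows, on the log2 scale, and the cause was not tested unless named. Ece1 in adrenal gland, BKC100 against BKC50, was 0.026 with protein-coding genes at equal sums. With all 6 heart columns as deposited, 1 of which is an adrenal copy, Ednra was -0.32 and Nos3 -0.54 at 100 µg. In pancreas against adrenal gland, Nos3 was 0.23 and Ace 0.89 with median-ratio scaling, and 0.50 and 1.11 with quantile normalization. In heart against pancreas, Ace was -0.03 and -0.16 under these, and Ece1 was -0.072 with quantile normalization. Leaving out a library, Ednra in adrenal gland at 50 µg ranged from -0.92 to 0.047, Ednrb in adrenal gland BKC100 against BKC50 from -0.17 to 0.20, Adra1b in heart at 50 µg from -0.96 to 0.34, Ece1 in pancreas from -0.28 to 0.44 and its 100 µg effect in pancreas against adrenal gland from -0.65 to 0.076. Depth is unknown, and Adra1a, Adra1b, Adrb1 and Edn1 outside the heart are too low for a fold change.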

Other observations

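Some related genes varied between libraries of 1 group. Adrb3, which encodes the beta-3 receptor of fat cells, was at 2.29 FPKM in adrenal BKC100 replicate 2 and between 0 and 0.785 FPKM in the other 5 adrenal libraries. The 5 adipocyte markers summed to 479 FPKM in that library and to 78.2 to 208 FPKM in the others. Rgs2, which encodes a regulator that shortens signalling of alpha-1 and angiotensin receptors, was at 591 FPKM in adrenal BKC100 replicate 1 and 36.7 FPKM in replicate 2, against 137 to 246 FPKM in the vehicle and BKC50 libraries. Nos1, the neuronal nitric oxide synthase gene, was at 1.49 FPKM in the library labelled 100 µg heart and at 0.022 to 0.105 FPKM in the other hearts. Mme was listed at 0 there and was at 0.589 to 1.36 FPKM in the others. These genes were chosen after their values were seen, and none was tested further.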
